A study of Arabidopsis thaliana with 8 samples.

Results

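The genes described are EXPA8 (AT2G40610), EXPA16 (AT3G55500), XTH18 (AT4G30280), XTH32 (AT2G36870) and XTH33 (AT1G10550) of Arabidopsis thaliana, 5 of the 13286 genes that the array annotation measured by name. EXPA8 and EXPA16 encode expansins, and the other 3 encode xyloglucan endotransglucosylase/hydrolases, abbreviated XTH. They were chosen because some were lower and others higher in systemic than in control leaves of the wild type. Their wild-type response is therefore a description and carries no test. The systemic response of the mutant is a difference between arrays that the choice did not use, and it was tested. The spread behind that test was estimated over all 8 arrays, the wild-type ones included. The test is therefore not fully independent of the choice.

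RNA came from rosette leaves of 5-week-old plants in the Columbia (Col-0) ecotype, grown in short days. Plants were wounded by crushing some rosette leaves at the midvein with tweezers, and leaves were sampled 2 h later. The 4 groups were systemic leaves of the mutant dTLec1-1, control leaves of dTLec1-1, systemic leaves of the wild type and control leaves of the wild type, with 2 Affymetrix ATH1 arrays each. Systemic leaves are usually the unwounded leaves of a wounded plant, and the labels do not say which plants gave the control leaves. The mutant is 1 SALK line, a collection of T-DNA insertions, and the labels name no gene for it, so its transcript was not checked. They also do not say whether replicates came from separate plants, so the p-values rest on a spread that may be technical.

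The growing plant wall is a mesh of cellulose fibrils tied together by xyloglucan and embedded in pectin. Expansins loosen this mesh at acid pH without cutting its polymers. XTH enzymes cut xyloglucan chains and either join the ends to other chains, which can loosen or strengthen a wall, or release them by hydrolysis. Both families are large, and their members differ in the organ, age and stimulus at which they are transcribed. In rosette leaves they are known for cell expansion and for responses to touch, shade and hormones.

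Each probe set has 1 value per array on the log2 scale, as normalized by the authors, and a difference of 1 is a 2-fold change. Array medians lay between 5.82 and 5.87 and lower quartiles between 4.61 and 4.72. The correlation between the 2 arrays of a group, over probe sets that are not independent of each other, was 0.992 to 0.996. Averaged over the 4 groups, the arrays numbered 1 and those numbered 2 had the same value at each probe set, to within 7.5e-05, so a difference between replicate numbers had been removed before deposit. That uses up part of the residual degrees of freedom, and the p-values given here are too small for that reason. The leaf identity of the samples was visible in RCA (Rubisco activase), at 13.57 to 13.73 on the 8 arrays, and LHCB4.2 (a light-harvesting protein), at 13.57 to 13.88, the 2 of 7 photosynthetic leaf markers measured by name. The root-hair expansins EXPA7 and EXPA18, the 2 of 5 root markers measured by name, lay between 4.54 and 5.24. Of the markers of vascular tissue and epidermis, 0 of 5 each were measured by name.

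EXPA8, an alpha-expansin, was one of the genes lower in wild-type systemic leaves. Its log2 values were 9.13 and 8.36 in wild-type systemic leaves, against 10.15 and 10.86 in wild-type control leaves. Both systemic arrays lay below both control arrays, by 1.76 on average (log2 difference −1.76 ± 0.33, SE, n = 2 arrays in each group), a 3.39-fold lower level. In dTLec1-1 it had 10.53 and 10.15 in systemic leaves, against 10.71 and 11.15 in control leaves. The mutant's systemic arrays were also the lower ones, but by a smaller step, −0.59 ± 0.33, which did not pass the test (limma adjusted p 0.416). In whole leaves, fewer expressing cells and less RNA per cell cannot be told apart, for this gene and the others.

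EXPA16, the other alpha-expansin, was different in direction. It had 6.15 and 6.89 in wild-type systemic leaves, against 5.30 and 5.28 in wild-type control leaves, a difference of 1.23 ± 0.28 (SE, n = 2 arrays in each group), or 2.34-fold. In dTLec1-1 the values were 6.01 and 5.99 in systemic leaves, against 6.03 and 5.33 in control leaves. These groups overlapped, because 1 control array was as high as the systemic ones, and the difference of 0.32 ± 0.28 did not pass (limma adjusted p 0.625). Without dTLec1-1 control replicate 2 it was −0.04, so the mutant's direction rests on that array.

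XTH33 was the lowered member of the XTH family. It had 4.94 and 4.61 in wild-type systemic leaves, against 6.73 and 6.10 in wild-type control leaves, a difference of −1.64 ± 0.27 (SE, n = 2 arrays in each group), or 3.12-fold. The wild-type systemic values were close to the lower quartile of the arrays, where differences are compressed. In dTLec1-1 it had 5.15 and 5.63 in systemic leaves, against 5.56 and 6.04 in control leaves. The groups overlapped slightly, and the difference of −0.41 ± 0.27 did not pass (limma adjusted p 0.493).

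XTH18 belongs to a group of closely related enzymes with XTH17, XTH19 and XTH20. It had 6.45 and 6.25 in wild-type systemic leaves, against 4.98 and 4.64 in wild-type control leaves, so the 4 arrays separated clearly. The difference was 1.54 ± 0.17 (SE, n = 2 arrays in each group), or 2.91-fold. The wild-type control values were close to the lower quartile of the arrays, where differences are compressed. In dTLec1-1 XTH18 had 5.31 and 5.68 in systemic leaves, against 5.07 and 5.24 in control leaves. Both systemic arrays were the higher ones, by 0.34 ± 0.17, which did not pass (limma adjusted p 0.36).

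XTH18 lies between XTH24 and XTH19 on its chromosome, as next neighbours in the gene table. XTH19 has a probe set of its own, which had 4.78 and 5.58 in wild-type systemic leaves, against 4.85 and 4.36 in wild-type control leaves. The groups overlapped, and the difference of 0.57 ± 0.27 did not pass (SE, n = 2 arrays in each group, limma adjusted p 0.242). In dTLec1-1 it was 0.05 ± 0.27. Probe sets of such near copies can pick up each other's transcript, so the share of the XTH18 signal that comes from XTH18 itself was not tested.

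XTH32 belongs to the branch of the family whose Arabidopsis enzymes mainly hydrolyse xyloglucan. It had 8.90 and 8.31 in wild-type systemic leaves, against 7.20 and 7.58 in wild-type control leaves, a difference of 1.22 ± 0.21 (SE, n = 2 arrays in each group), or 2.33-fold. In dTLec1-1 it had 8.48 and 8.78 in systemic leaves, against 7.57 and 7.48 in control leaves. Systemic and control arrays were well apart in both genotypes. The mutant difference was 1.10 ± 0.21, or 2.15-fold, with a 95% confidence interval from 0.60 to 1.61. It missed the threshold over all probe sets (limma adjusted p 0.0766, unadjusted p 0.00124). With the replicate number added to the fit as a block it also missed (limma adjusted p 0.144). It passed in a fit of the 4 dTLec1-1 arrays alone (limma adjusted p 0.0133). The difference there was still 1.10, so that pass comes from another estimate of the spread and is no further support. Without either wild-type control array the difference was also 1.10. Without any one of the dTLec1-1 arrays the adjusted p lay between 0.0892 and 0.405.

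**Figure D1:**
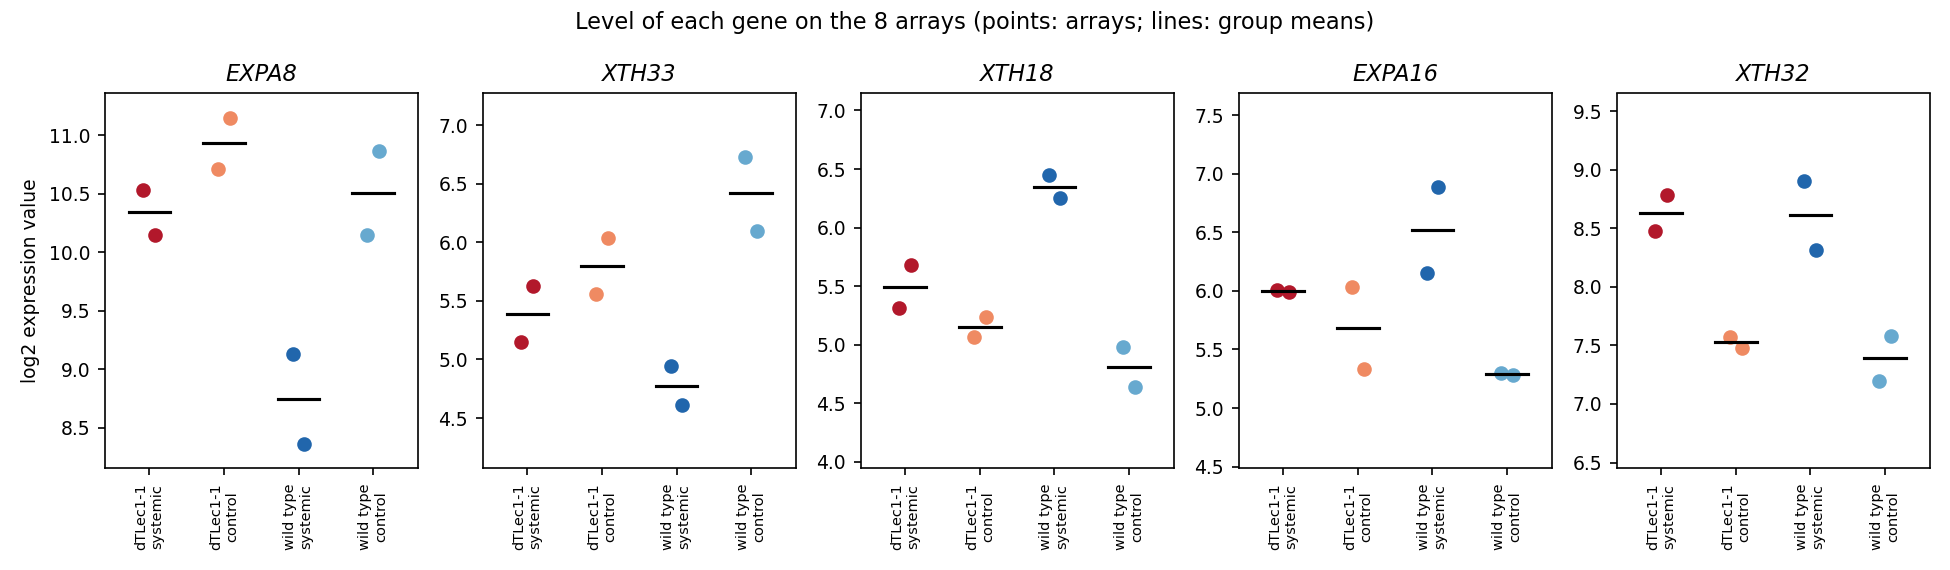
Log2 expression value (vertical axis, a span of the same size in each panel) of the 5 genes in systemic and control leaves of dTLec1-1 and of the wild type. Each point is 1 array and each line a group mean. The wild-type systemic arrays are the lowest for EXPA8 and XTH33 and the highest for XTH18 and EXPA16, while XTH32 is high on the systemic arrays of both genotypes.

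Over the 5 genes, 0 passed the limma test in dTLec1-1, where 0.668% of the 22746 probe sets passed. An unadjusted limma p under 0.05 was found for 1 of the 5 genes (XTH32) and for 3747 of the 22746 probe sets. At these backgrounds a count of 0 or 1 among 5 genes says little. The groups did not overlap in 3 of the 5 genes (EXPA8, XTH18, XTH32), against 47.1% of all probe sets. The intervals show what the mutant arrays leave room for. The 95% confidence interval of the mutant's log2 difference ran from −1.36 to 0.18 for EXPA8, from −1.04 to 0.22 for XTH33, from −0.05 to 0.73 for XTH18 and from −0.34 to 0.97 for EXPA16. In the wild type, whose values chose the genes, the groups did not overlap in 5 of 5, against 51.9% of all probe sets, and nothing is read from that count.

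Set side by side, the mutant and wild-type log2 differences were −0.59 and −1.76 for EXPA8, −0.41 and −1.64 for XTH33, 0.34 and 1.54 for XTH18, 0.32 and 1.23 for EXPA16, and 1.10 and 1.22 for XTH32. The mutant value had the sign of the wild-type value for each of the 5 genes. Equal signs were not counted over all probe sets, so nothing is read from the 5. For XTH32 the mutant value was 90.6% of the wild-type value, and for the other 4 between 22.3% and 33.4%. Single arrays move the mutant values behind the shares of these other 4 by more than 1.5 times. With 1 dTLec1-1 array left out, the log2 difference ran from −0.81 (without control replicate 1) to −0.37 (without control replicate 2) for EXPA8, and from 0.15 (without systemic replicate 2) to 0.53 (without systemic replicate 1) for XTH18. For XTH33 it was −0.65 without systemic replicate 2 or control replicate 1, and −0.17 without systemic replicate 1 or control replicate 2. For EXPA16 it was 0.67 without control replicate 1, and its sign turned without control replicate 2. For XTH32 the mutant value ran from 0.95 to 1.26. With 1 array left out, its wild-type value ran from 0.92 to 1.51, and the difference of its responses from −0.41 to 0.18, so its share is also loose. Because the genes were chosen by their wild-type values, these shares are descriptions and were not tested. The mutant minus wild-type difference of the responses was 1.17 ± 0.46 (SE) for EXPA8 and 1.23 ± 0.38 for XTH33. It was −1.20 ± 0.23 for XTH18, −0.91 ± 0.40 for EXPA16 and −0.11 ± 0.30 for XTH32. With 1 array left out it ran from 0.78 to 1.56 for EXPA8 and from 0.92 to 1.55 for XTH33. For XTH18 it ran from −1.39 to −1.01, and for EXPA16 from −1.28 to −0.54. These differences use the wild-type values that chose the genes, so they are descriptions and were not tested.

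**Figure D2:**
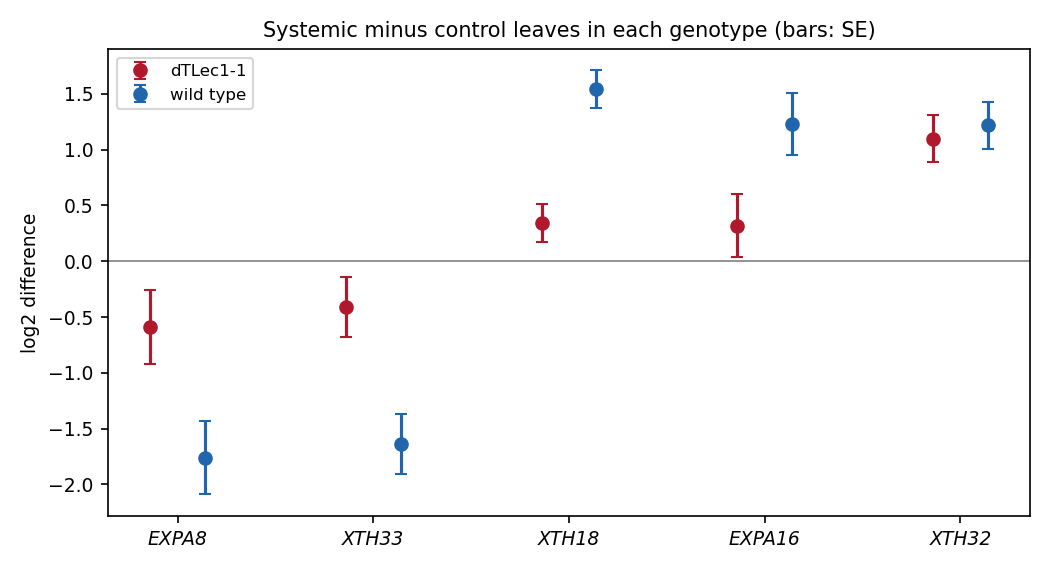
Log2 difference between systemic and control leaves (vertical axis) of each gene in dTLec1-1 and in the wild type. Points are differences of means of 2 arrays, and bars are the SE from the limma fit. The dTLec1-1 point is nearer to 0 than the wild-type point for EXPA8, XTH33, XTH18 and EXPA16, and the 2 points of XTH32 lie at 1.10 and 1.22.

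The genotypes were also set against each other within a leaf type. These comparisons share wild-type arrays with the response that chose the genes, so they are given as values without a test. In systemic leaves EXPA8 had a mean of 10.34 in dTLec1-1 and 8.75 in the wild type, a log2 difference of 1.59 ± 0.33 (SE, n = 2 arrays in each group), or 3.02-fold higher in the mutant. XTH33 had means of 5.39 in dTLec1-1 and 4.77 in the wild type (0.62 ± 0.27). XTH18 had a mean of 5.49 in dTLec1-1 and 6.35 in the wild type (−0.86 ± 0.17, or 1.81-fold lower in the mutant). EXPA16 was −0.52 ± 0.28 apart, with a mean of 6.52 in the wild type, and XTH32 had 8.63 in dTLec1-1 and 8.61 in the wild type (0.02 ± 0.21). In systemic leaves the genotypes did not overlap for 4 genes, all but XTH32, against 54.7% of all probe sets.

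In control leaves EXPA8 had a mean of 10.93 in dTLec1-1 and 10.51 in the wild type (0.42 ± 0.33, SE, n = 2 arrays in each group), with overlapping arrays. XTH18 had 5.15 in dTLec1-1 and 4.81 in the wild type (0.34 ± 0.17), and EXPA16 had 5.68 in dTLec1-1 and 5.29 in the wild type (0.39 ± 0.28). XTH33 had 5.80 in dTLec1-1 and 6.42 in the wild type (−0.62 ± 0.27), of the opposite sign to the value in systemic leaves. XTH32 had 7.53 in dTLec1-1 and 7.39 in the wild type (0.14 ± 0.21). The genotypes did not overlap for 3 genes (EXPA16, XTH18, XTH33), against 37.9% of all probe sets.

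The sizes of these genotype differences move with single arrays, relative to their size least for EXPA8 and XTH18 in systemic leaves. With 1 array left out, the control-leaf value ran from 0.06 (without wild-type control replicate 1) to 0.78 (without wild-type control replicate 2) for EXPA8, and from 0.03 (without dTLec1-1 control replicate 1) to 0.74 (without dTLec1-1 control replicate 2) for EXPA16. For XTH18 it ran from 0.17 to 0.51, and for XTH33 from −0.93 to −0.30, both extremes without a wild-type control array. In systemic leaves EXPA16 ran from −0.90 to −0.15, both without a wild-type systemic array, and XTH33 from 0.38 to 0.86, both without a dTLec1-1 systemic array. EXPA8 ran from 1.21 to 1.98 and XTH18 from −1.05 to −0.67 there. These 4 genes kept their sign in both leaf types with any array left out, and XTH32, near 0, did not, with values from −0.27 to 0.32 in systemic and from −0.05 to 0.33 in control leaves.

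**Figure D3:**
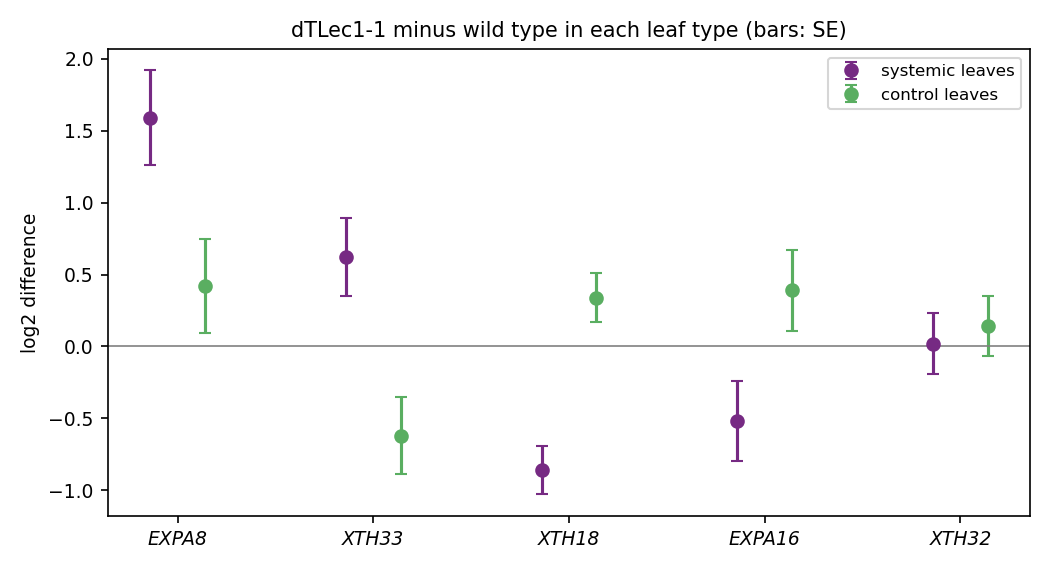
Log2 difference between dTLec1-1 and the wild type (vertical axis) of each gene, in systemic and in control leaves. Points are differences of means of 2 arrays, and bars are the SE from the limma fit. For XTH33, XTH18 and EXPA16 the systemic and control points lie on opposite sides of 0, for EXPA8 both lie above 0, and for XTH32 both lie near 0.

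The order of the 4 groups differed among the genes. For EXPA8 it was dTLec1-1 control, wild-type control, dTLec1-1 systemic and wild-type systemic leaves, from high to low, and only the last step exceeded the range of the arrays. XTH33 was highest in wild-type control leaves, then came dTLec1-1 control and dTLec1-1 systemic leaves, which overlapped, and wild-type systemic leaves were lowest. XTH18 and EXPA16 shared 1 order, wild-type systemic, dTLec1-1 systemic, dTLec1-1 control and wild-type control leaves. For XTH18 no neighbours in that order overlapped, and for EXPA16 the 2 mutant groups did. XTH32 fell into 2 levels, a high one in the systemic and a low one in the control leaves, with the genotypes overlapping within each.

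Most other members of both families measured by name did not pass the test in the wild type. By name, 19 of 36 expansin genes and 10 of 33 XTH genes of the gene table had a probe set of their own, which leaves 24 genes beside the 5. In the wild type 1 of the 24 passed, which was 4.17% against 11.9% of all probe sets, and it was lower in systemic leaves. The 24 are what was left after the 5 were taken out for their wild-type response. A low share among them is therefore partly set by that choice, and nothing is read from it. The median log2 difference of the 24 was −0.04, with −0.02 over all probe sets, and 18 of them differed by less than 0.3. This was so for 12 of the 17 expansins and for 6 of the 7 XTH genes. The count moved between 0 and 3 with an array left out, and only 7 of the 24 had a mean above the median probe set, so for the dim majority differences are compressed and nothing is read for the families as a whole.

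The gene that passed was EXPB1, a beta-expansin. It had 5.23 and 5.07 in wild-type systemic leaves, against 5.82 and 6.25 in wild-type control leaves, so it fell by 0.88 log2 units (SE 0.19, n = 2 arrays in each group, limma adjusted p 0.025). The call was lost without wild-type systemic replicate 1, where the difference was −0.96, and without systemic replicate 2 (−0.80) or control replicate 2 (−0.67). Such fits leave 1 array in a group, which by itself weakens the test. Without wild-type control replicate 1 the difference was −1.10. In dTLec1-1 EXPB1 had 5.42 and 4.98 in systemic leaves, against 5.90 and 6.08 in control leaves. That difference of −0.79 ± 0.19 did not pass (limma adjusted p 0.113), and the difference of the 2 responses was 0.09 ± 0.26 (limma adjusted p 0.929).

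After EXPB1 the largest wild-type differences were −0.71 ± 0.55 for the expansin-like gene EXLA1, 0.62 ± 0.32 for EXLA2, 0.57 for XTH19, −0.46 ± 0.24 for EXPB3 and −0.35 ± 0.22 for EXLB1 (SE, n = 2 arrays in each group). None of these 5 passed, with limma adjusted p between 0.242 and 0.515. Their calls depended on the wild-type control arrays. Without wild-type control replicate 1, EXLB1 (−0.68) and EXPB3 (−0.83) passed beside EXPB1, and without wild-type control replicate 2, EXLA1 (−1.59) and EXLA2 (1.12) passed and EXPB1 did not. In such a fit the 1 remaining control array is assumed to vary like the arrays of the other groups. For EXLA1, with wild-type control values of 10.34 and 8.58, leaving out the second array also removes most of the spread, so that call carries little.

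In dTLec1-1 0 of the 24 passed in limma, where 0.668% of all probe sets did. An unadjusted limma p under 0.05 was found for 3 of the 24 and for 3747 of the 22746 probe sets. The median log2 difference of the 24 was −0.10, with −0.01 over all probe sets, and 17 of the 24 were negative. Negative values were not counted over all probe sets, so nothing is read from the 17. EXPB1, EXLB1 (−0.56 ± 0.22), EXLA1 (−0.50 ± 0.55) and XTH16 (−0.37 ± 0.21, SE, n = 2 arrays in each group) had the largest values. Between the genotypes 0 of the 24 passed in systemic leaves, where 5.53% of all probe sets did, and 0 in control leaves, where 0% did (limma). An unadjusted limma p under 0.05 was found for 0 of the 24 in systemic and 1 in control leaves. Over the 22746 probe sets these counts were 5285 and 2104. EXPA4 had the largest genotype difference in systemic leaves, 0.52 ± 0.25, with values of 8.10 and 7.48 in dTLec1-1, against 7.08 and 7.46 in the wild type (limma adjusted p 0.278). The difference of the responses passed for 0 of the 24 (limma), and for 0.0044% of all probe sets. It had an unadjusted limma p under 0.05 for 0 of the 24 and for 2553 of the 22746 probe sets.

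**Figure D4:**
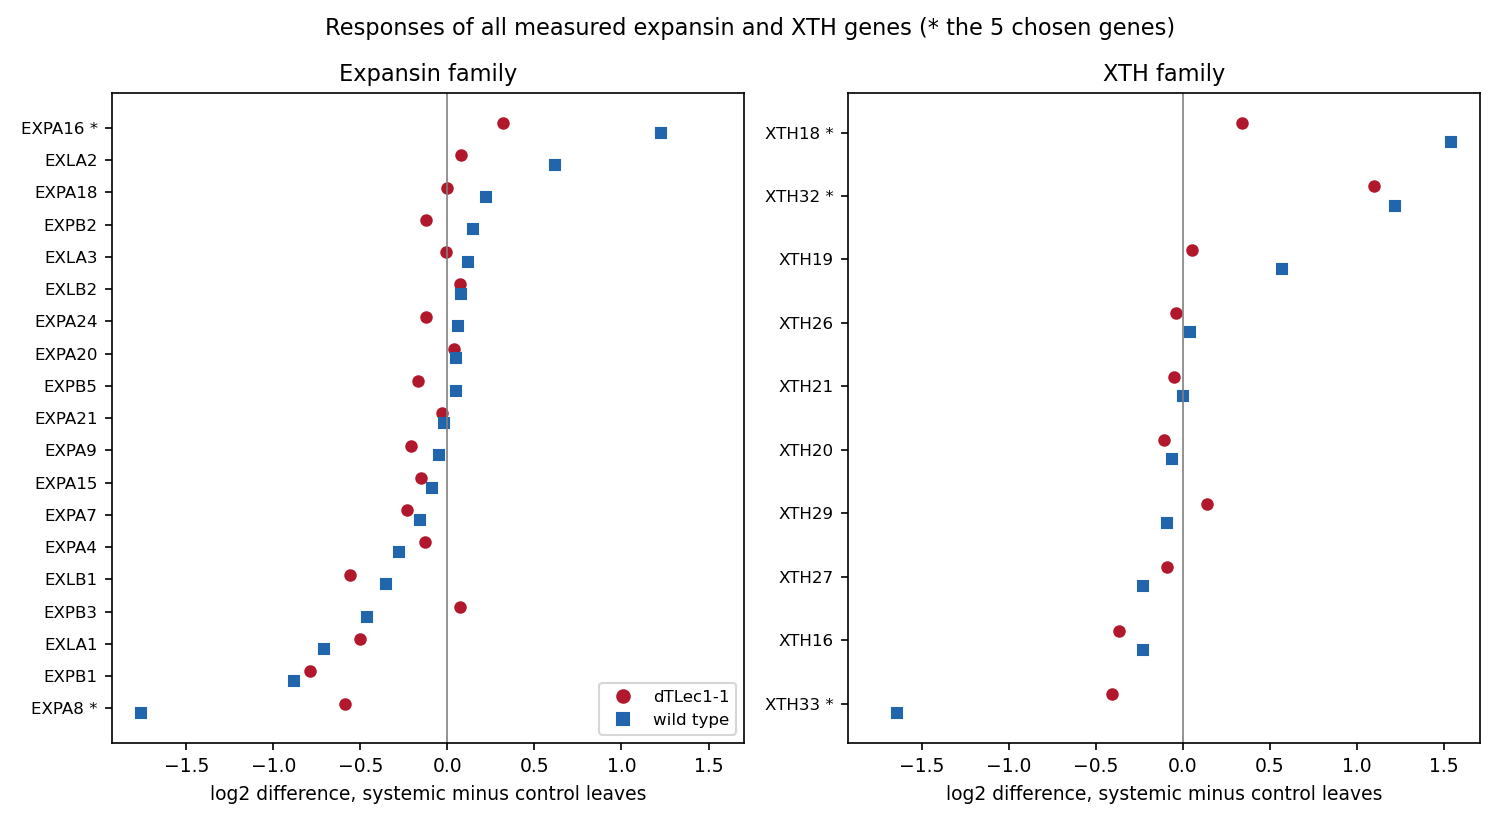
Log2 difference between systemic and control leaves (horizontal axis) of the 19 expansin and 10 XTH genes measured by name, with dTLec1-1 as circles and the wild type as squares. Genes run from the highest to the lowest wild-type value, and stars mark the 5 chosen genes. The chosen genes hold both ends in each family because they were picked by the wild-type value, and most of the others lie within 0.3 of 0.

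Few other wall and growth genes were measured by name. Of 9 genes of xyloglucan synthesis and trimming, CSLC4, which makes the glucan backbone of xyloglucan, was the 1 measured. It fell by 0.34 in wild-type systemic leaves (limma adjusted p 0.0268) and had −0.26 in dTLec1-1 (adjusted p 0.153). The wild-type call of CSLC4 was lost without any one of the wild-type or dTLec1-1 control arrays, with adjusted p up to 0.16, and with the replicate number as a block (0.104). Of 11 genes of cellulose synthesis, COB, needed for ordered cellulose deposition, was the 1 measured, and its differences of 0.14 in dTLec1-1 and 0.23 in the wild type did not pass (limma adjusted p 0.568 and 0.233). Of 10 genes of auxin, brassinosteroid and gibberellin action or turnover, the 1 measured was IAA29, an auxin response repressor. Its mean was 10.42 in dTLec1-1 and 9.80 in the wild type in systemic leaves, 0.62 higher in the mutant (limma adjusted p 0.0384). That call was lost without any one of the systemic or dTLec1-1 control arrays, with adjusted p up to 0.225, and with the block (0.0932). FAMA, a regulator of guard cell fate and the 1 of 4 guard cell markers measured, had −0.06 in dTLec1-1 and 0.41 in the wild type, neither past the threshold. Its part in the results above was not tested.

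For each of the 5 genes, the 3 genes with the most similar profile were taken by Pearson correlation over the 8 arrays, among 877 other genes with a range of at least 1 on the log2 scale. The 8 arrays fall into 4 groups, so a high r mainly says that the group means run in parallel, and it is given without a test. The genes most like EXPA8 were AT5G11420 (r 0.994), AT1G49010 (0.994) and AT1G55360 (0.992). They had smaller wild-type differences than EXPA8, between −0.92 and −0.66, and differences between −0.38 and −0.24 in dTLec1-1. Those most like XTH33 were AT1G16170 (0.968), AT2G42040 (0.962) and AT3G09020 (0.953), with wild-type differences between −0.96 and −0.85.

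XTH18 ran most closely with PUB43, a plant U-box protein gene (r 0.986), AT4G27590 (0.985) and COR15B, a cold-regulated gene (0.983). COR15B differed by 0.63 in dTLec1-1 and 1.58 in the wild type between systemic and control leaves. EXPA16 ran most closely with AT1G20070 (0.977), AT5G53420 (0.972) and the glucosyltransferase gene UGT76E11 (0.960), which had 0.56 in dTLec1-1 and 1.87 in the wild type. The nearest to XTH32 were AT5G62360 (0.958), GH9C2, a glycosyl hydrolase gene (0.954), and AT3G50340 (0.952). Their systemic differences were 2.00, 0.98 and 1.40 in dTLec1-1, against 3.01, 1.84 and 1.51 in the wild type. These genes were picked for likeness to XTH32 over the same arrays, so the shared direction follows from the choice and nothing is read from it.

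**Figure D5:**
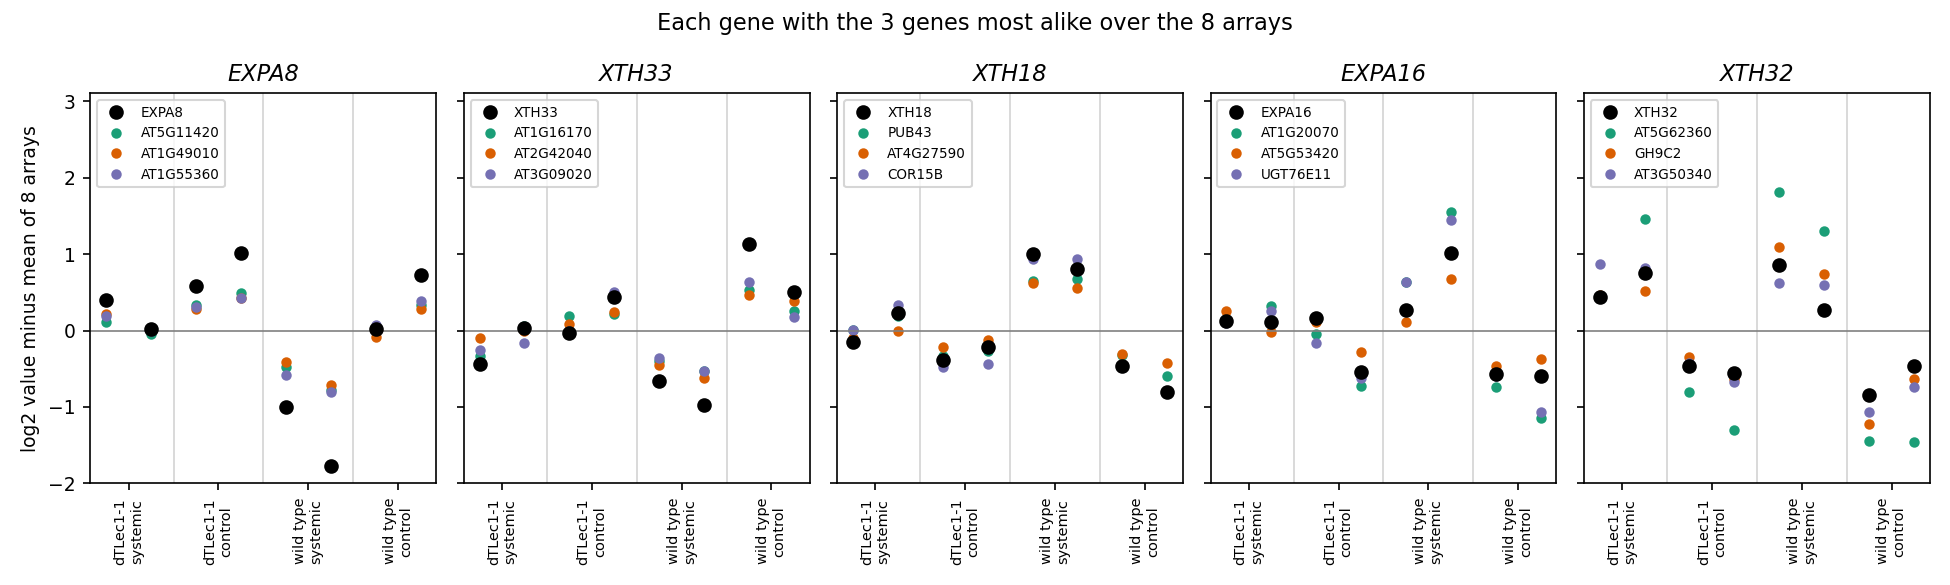
Log2 value minus the gene's mean over the 8 arrays (vertical axis), on the 2 arrays of each group, for each of the 5 genes (large black points) and the 3 genes most like it (small coloured points). EXPA8 and XTH33 are below 0 on both wild-type systemic arrays with their nearest genes, XTH18 and EXPA16 are above 0 there, and XTH32 and its nearest genes are above 0 on the systemic arrays of both genotypes.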

How the data were processed

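The values deposited by the authors are on a log2 scale, 1 per probe set and array. The submitters' processing notes name RMA and Partek, without versions or roles. The log2 unit was read from the range of the values, 3.24 to 14.28. Arrays have no read depth, and their number limits the precision.

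The array's 64 control probe sets were dropped from the 22810, and 22746 were tested. The platform annotation gave 1 gene to 13513 of them, several to 503 and none to 8730, and symbols were updated from a TAIR10.1 gene table. No coordinates are given, because no genome build is named for the arrays. A gene with several probe sets was taken by the brightest.

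Samples were grouped by their titles. All 8 arrays entered 1 limma fit (version 3.58.1, R 4.3.3, lmFit then eBayes) with a mean for each group, 4 residual degrees of freedom and 3.12 from the prior. Tests were two-sided, p-values were adjusted by Benjamini-Hochberg over the 22746 probe sets, the threshold was 0.05, and intervals are 95% moderated intervals. Alternatives were the replicate number as a block, the 4 arrays of a comparison alone, centring on array medians, cyclic loess, leaving out dim probe sets, a variance trend with robust estimation, and leaving out each array.

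The 5 genes, the gene lists and the tests were chosen with earlier results of these data known. Named are the 5 genes, other expansin and XTH genes past the threshold or with the largest differences, list members past the threshold, and the 3 genes most alike each of the 5. COB, FAMA, RCA, LHCB4.2 and the root-hair expansins are named to give each list's result.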

Additional observations from a re-analysis of the deposited data

How the results depend on the processing

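The count of the 5 genes past the threshold in dTLec1-1 was 0 with the replicate block, array centring, cyclic loess, the filter on dim probe sets (which keeps 3 of the 5) and the variance trend. It was 1, XTH32, with the 4 dTLec1-1 arrays alone, and between 0 and 1 with any array left out. Without an array, the dTLec1-1 difference of EXPA16 ran from −0.04 to 0.67. Of the other 24 family members, 0 passed in the wild type among the 7 the filter kept, and between 0 and 3 with an array left out. With the replicate block 16 probe sets passed in dTLec1-1 in place of 152, and 1596 in the wild type in place of 2716, and CSLC4 in the wild type (adjusted p 0.104) and IAA29 between genotypes in systemic leaves (0.0932) no longer passed. The block changed no other call named in the report, and gave XTH32 an adjusted p of 0.144 in dTLec1-1. Deviations of same-numbered arrays from their group means correlated between −0.58 and −0.13, as the removed difference between replicate numbers forces on average, so this check could not show pairing. The dTLec1-1 count was 324 with its 4 arrays alone, 390 without either wild-type control array and 0 without dTLec1-1 systemic replicate 2 or any one dTLec1-1 control or wild-type systemic array. The wild-type count was 1341 and 806 without systemic replicates 1 and 2, 1665 without control replicate 2, and 2582 at most. Of its calls, 1344 were higher and 1372 lower, and 1563 and 1053 after cyclic loess. CSLC4 had 0.0785 with 4 arrays, 0.0624 after loess and 0.0547 with the variance trend. Near 0, EXPB1 changed sign without an array: from −0.13 to 0.31 for the difference of responses, −0.17 to 0.27 and −0.25 to 0.17 between genotypes in systemic and control leaves. The same holds for IAA29 in control leaves (−0.14 to 0.08). The alternatives for the 5 genes between genotypes and for their difference of responses, and for EXPB1, CSLC4 and IAA29, were added after the data were seen.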
